A study of Homo sapiens with 6 samples.

Results

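The long intergenic non-coding RNA (LINC) genes formed 479 of the 21729 genes tested in UWB1.289 cells, a human ovarian carcinoma line deficient in the repair protein BRCA1. Members were lncRNA genes of GENCODE release 44 whose symbol is LINC followed by digits, with no antisense ending, and whose counts summed to more than 10 across the 6 samples. GENCODE names 2261 such genes, 2085 of them were listed in the counts and 23.0% of those passed the filter. The libraries were made from poly(A)-selected RNA after 24 h, 3 with Olaparib, which inhibits the poly(ADP-ribose) polymerases PARP1 and PARP2, and 3 with the vehicle DMSO. No other agent or allele differed between the groups, and the labels give the genotype of both as WT. The labels give 4 µM Olaparib, whereas the series' design text gives 10 µM. Library totals lay between 35360458 and 39640775 counts, and 8 of 9 epithelial marker genes, including PAX8 and EPCAM, had at least 100 counts in every sample, whereas WT1 had at most 10 counts in total. The 5 leukocyte markers summed to 111 to 149 counts per sample, and COL1A1, COL1A2 and CDH5, which mark fibroblasts or endothelium in tissue, each had at least 100 in every sample, whereas PDGFRB, LUM, DCN and PECAM1 had at most 10 counts in total.

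LINC genes are transcribed by RNA polymerase II, spliced and in many cases polyadenylated like messenger RNAs, but carry no long open reading frame. A LINC symbol is a placeholder that marks a transcript lying between protein-coding genes until a function gives it a name of its own. The class therefore groups genes by position and naming rather than by sequence or function. The best known lncRNAs act as scaffolds, as decoys for proteins or microRNAs, or through the act of transcription next to a neighboring gene, and many are restricted to few tissues and present at low levels. Transcripts without a poly(A) tail are poorly captured by the library type used here.

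The starts of 5 members are shown, called ones with a promoter window near the GENCODE start and abundant ones. No such window was available for LINC01111, LINC01011 and LINC01089, which were also called and lower. LINC00973, LINC02783 and LINC02980 were lower after Olaparib, and LINC00665 and LINC01224 were among the most abundant members and did not pass the test. The sequences are the RefSeq promoter windows on GRCh38.p14, from 250 bases before to 50 bases after the annotated start, 5′ to 3′ on the strand of the gene. Capitals mark matches to the 8 motifs named after the sequences. The windows are chr3:98980805-98981104 on the plus strand for LINC00973, chr1:17189539-17189838 on the plus strand for LINC02783, chr6:25992417-25992716 on the plus strand for LINC02980, chr19:36331704-36332003 on the minus strand for LINC00665 and chr19:23416025-23416324 on the minus strand for LINC01224.
LINC00973: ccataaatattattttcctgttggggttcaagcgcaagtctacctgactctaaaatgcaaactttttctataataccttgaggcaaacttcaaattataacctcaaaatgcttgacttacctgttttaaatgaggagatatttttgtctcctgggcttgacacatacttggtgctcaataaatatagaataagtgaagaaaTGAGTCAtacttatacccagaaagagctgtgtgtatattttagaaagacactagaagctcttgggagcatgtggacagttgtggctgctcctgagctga
LINC02783: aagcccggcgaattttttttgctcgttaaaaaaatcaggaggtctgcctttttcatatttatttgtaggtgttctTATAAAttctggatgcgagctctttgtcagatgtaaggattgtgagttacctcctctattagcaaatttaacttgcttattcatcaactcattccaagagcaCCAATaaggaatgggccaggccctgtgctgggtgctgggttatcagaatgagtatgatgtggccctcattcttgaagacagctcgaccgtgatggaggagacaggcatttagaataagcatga
LINC02980: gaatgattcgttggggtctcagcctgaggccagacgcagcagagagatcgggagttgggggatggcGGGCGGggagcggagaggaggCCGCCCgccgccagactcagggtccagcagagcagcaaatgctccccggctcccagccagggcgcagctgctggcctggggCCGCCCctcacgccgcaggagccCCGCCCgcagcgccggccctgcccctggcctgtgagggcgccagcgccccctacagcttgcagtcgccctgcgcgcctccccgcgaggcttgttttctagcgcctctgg
LINC00665: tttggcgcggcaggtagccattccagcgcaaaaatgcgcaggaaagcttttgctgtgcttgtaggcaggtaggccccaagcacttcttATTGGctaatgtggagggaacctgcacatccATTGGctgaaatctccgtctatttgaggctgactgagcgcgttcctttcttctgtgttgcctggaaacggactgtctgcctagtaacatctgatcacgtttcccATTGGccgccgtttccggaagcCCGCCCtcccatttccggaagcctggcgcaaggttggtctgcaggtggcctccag
LINC01224: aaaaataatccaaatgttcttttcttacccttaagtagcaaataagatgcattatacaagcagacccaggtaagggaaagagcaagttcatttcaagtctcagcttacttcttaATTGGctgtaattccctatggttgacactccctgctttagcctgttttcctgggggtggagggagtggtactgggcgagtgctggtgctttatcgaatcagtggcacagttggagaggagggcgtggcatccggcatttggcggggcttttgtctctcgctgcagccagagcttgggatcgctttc

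The window of LINC00973 was rich in A and T, with 37.3% G and C and 1 CpG, and held an AP-1 site 49 bases before the start. That of LINC02980 was a CpG-rich sequence with 72.7% G and C, 26 CpGs and 4 GC boxes. LINC02783 had 42% G and C, a TATA box 175 bases and a CCAAT box 73 bases before the start. LINC00665 had 3 CCAAT boxes and 1 GC box, and LINC01224 had 1 CCAAT box. The 3 lower members shown here thus shared none of the 8 motifs.

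A RefSeq window was found by symbol for 313 members, and in 186 of them its start lay within 100 bases of the GENCODE start. The search covered both strands for the TATA box (TATAAA), the CCAAT box (CCAAT), the GC box (GGGCGG), the E-box (CACGTG), the cAMP response element (TGACGTCA), the AP-1 site (TGANTCA), the interferon-stimulated response element (GAAA, any 2 bases, GAAA) and the EGR1 site (GCGTGGGCG), where the last can overlap a GC box. The AP-1 letters were found in 12.4% of the 186 LINC windows and in 7.71% of all 35097 windows in the table. The GC box was found in 34.9% of LINC windows against 44.9% of all. For the CCAAT box the shares were 39.8% and 34.6%, for the TATA box 12.4% and 11.5%, and for the E-box 9.14% and 7.25%. The interferon-stimulated response element was in 4.3% of LINC windows and in 3.58% of all, the cAMP response element in 1.61% and 1.85%, and the EGR1 site in 0.538% and 0.789%. Median G and C content was 54.2% in LINC windows and 58.7% in all windows. It was 58.5% in the 28 windows of members with a mean normalized count of at least 100 and 48.7% in the 93 windows of members under 10, with medians of 15 and 5 CpGs. These are shares of windows holding the letters, not sites shown to be bound.

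Most LINC genes had few or no counts in these cells. Of the 2085 listed, 961 (46.1%) had 0 counts in all 6 libraries and 645 had 1 to 10 counts in total. A count of 3 in these libraries corresponds to 0.076 to 0.085 CPM (counts scaled to a common library total). Lower levels rest on fewer counts than that per library and are uncertain. Other lncRNA genes passed the filter in 30.3% of 10796 listed and protein-coding genes in 76.1% of 19322. The filter was narrow at its edge, with 15 members at exactly 11 counts and 18 excluded LINC genes at exactly 10. Of the 479 members, 418 had at least 1 count in every sample, and 10 had 3 counts or fewer in each.

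Levels, given as CPM per kilobase of exon and averaged over 6 samples, were low and very unequal. Exon lengths were those of GENCODE 44, a later annotation than the authors used, so levels and ranks are approximate. The median member had 0.114, with quartiles of 0.0349 and 0.424, against medians of 0.202 for other lncRNA genes and 3.71 for protein-coding genes. Only 50 members (10.4%) reached a level of 1. LINC00973 stood above all others at 37.6 ± 5.3 (SD over all 6 samples, n = 6), 2.46 times the level of LINC02474 at 15.3 ± 1.17. LINC01357 (13.3 ± 0.646) and LINC02802 (13.1 ± 0.651) came next and did not differ from each other beyond their spread. LINC00941 at 9.69 ± 0.558 and LINC02167 at 9.03 ± 0.439 overlapped within their SDs, as did LINC01224 at 7.8 ± 0.36 and LINC01111 at 6.68 ± 0.797. LINC00665 (5.99 ± 0.12) and LINC02783 (5.93 ± 0.475) closed the group of 10. All exons of LINC00941 and 75.8% of the exonic bases of LINC01357 overlap another gene, which makes both levels uncertain.

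**Figure D1:**
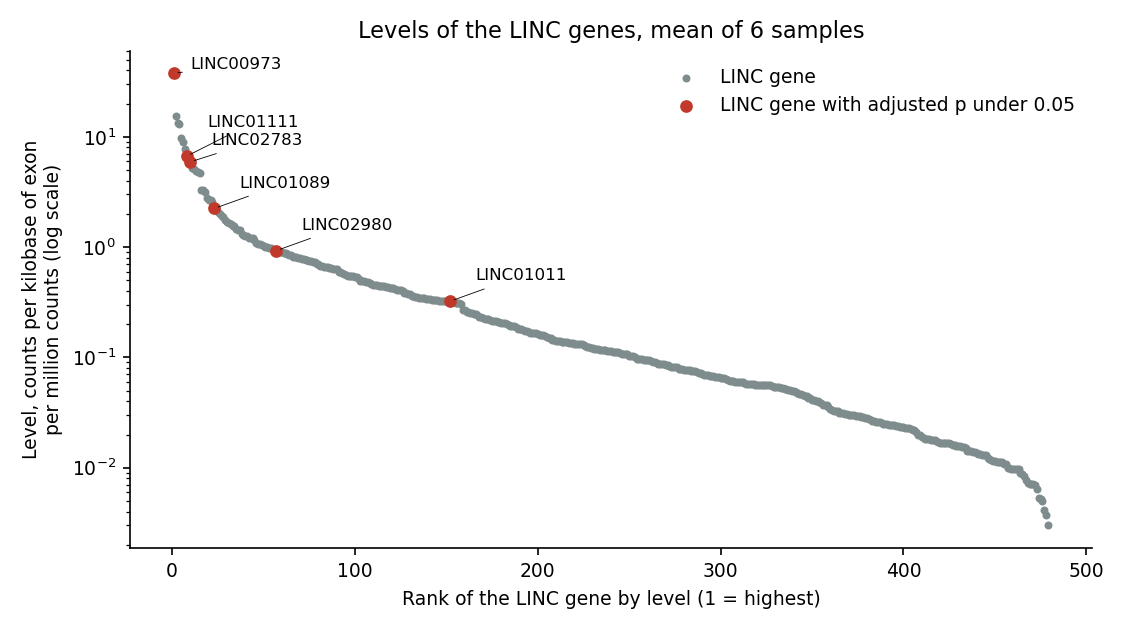
Level of each of the 479 LINC genes, as CPM per kilobase of exon on a log scale, against its rank. Each point is the mean of 6 samples, and red points are the 6 genes with an adjusted p under 0.05, from LINC00973 at rank 1 to LINC01011 at rank 152.

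In counts, the class was dominated by few members. The 5 with the most counts took 23.2% and the first 10 took 34.5% of all LINC counts, and 20 members made up 50% of them. Chromosome 19 alone held 18.5% of LINC counts in 17 tested members of 42 listed, most of them from LINC00665, LINC01224 and LINC00662. LINC00665 (ENSG00000232677, chromosome 19, 36259540 to 36331770 on GRCh38), which lies 2.68 kb from the zinc finger gene ZFP14, had the most counts of all members, with 2757, 2767 and 2749 normalized counts in the Olaparib samples against 2622, 2756 and 2714 in the DMSO samples. LINC01224 (ENSG00000269416, chromosome 19, 23399097 to 23416075) lies 3.63 kb from another zinc finger gene, ZNF91. Chromosome 1 followed with 17.8% of LINC counts and chromosome 3, which carries LINC00973, with 8.96%.

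After Olaparib, 6 LINC genes differed from DMSO by edgeR's quasi-likelihood test at an adjusted p under 0.05, with the Benjamini-Hochberg method applied over all 21729 genes, and all 6 were lower. They were LINC00973, LINC02783, LINC01111, LINC01011, LINC02980 and LINC01089. The 6 are 1.25% of members, where 3.36% of all genes tested were called and 1.21% were called and lower. Of these, 3 (0.626% of members: LINC00973, LINC01011 and LINC02980) also exceeded 1.2-fold and were counted as differentially expressed, against 1.21% of all genes in either direction and 0.483% in the lower direction. The share of members called was thus below that of all genes, and in the lower direction close to it. Only LINC00973 was called under all 13 alternative analyses. The number called was 6 without Olaparib replicate 1 (with LINC02474 in and LINC01089 out), 3 without Olaparib replicate 3 or without DMSO replicate 3, 2 without DMSO replicate 2, and 1 without Olaparib replicate 2 or without DMSO replicate 1. DESeq2's Wald test called 2, LINC00973 and LINC02783, and its filter gave no adjusted p to 412 of the 479 members, LINC01011 among them.

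At an unadjusted p under 0.05 there were 33 members (6.89%; 14.8% of all genes), of which 26 were lower and 7 higher. Over all genes tested, 6.97% were lower and 7.83% higher by this measure. In 68 members (14.2%) the 3 Olaparib samples did not overlap the 3 DMSO samples, against 19.3% of all genes. These were 45 lower members, where 9.29% of all genes separated in this direction, and 23 higher members, where 10.0% of all genes did. Fitted fold changes were below 0 in 262 members and above 0 in 217, with a median log2 fold change of -0.038 for members, -0.0042 for all genes, -0.073 for other lncRNA genes and 0.0050 for protein-coding genes. The median of members ranged from -0.068 without Olaparib replicate 2 to -0.026 without DMSO replicate 3. Among other lncRNA genes 41 of 3267 were called, 34 of them lower, whereas 451 of the 642 called protein-coding genes were higher. The difference between these classes was not tested.

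**Figure D2:**
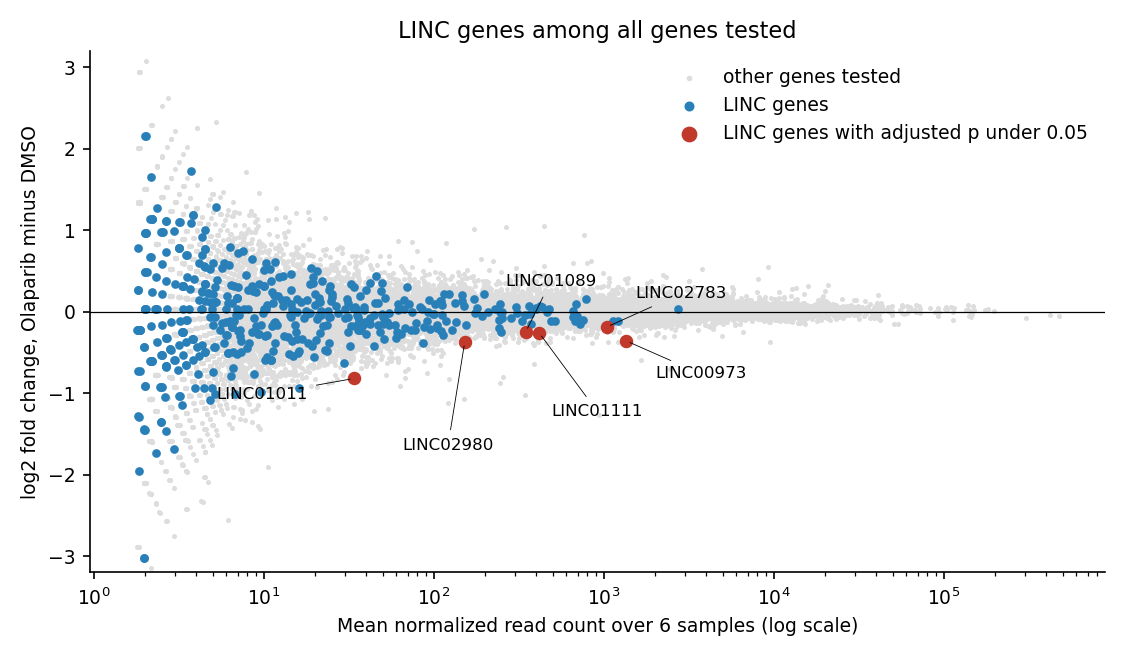
The log2 fold change of each gene (Olaparib minus DMSO) against its mean normalized read count over 6 samples on a log scale. Blue points are LINC genes, red points the 6 LINC genes with an adjusted p under 0.05, all below 0, and gray points other genes tested. The vertical axis leaves out 6 other genes.

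LINC00973 showed the clearest difference. The gene (ENSG00000240476) lies on the plus strand of chromosome 3 from 98981058 to 98983096, with 962 exonic bases that overlap no exon of another gene on either strand. It had 1217, 1109 and 1241 normalized counts in the Olaparib samples against 1459, 1532 and 1572 in the DMSO samples. Every Olaparib sample was below every DMSO sample, with means of 1189 ± 70.1 and 1521 ± 57.3 (SD, n = 3 each). The log2 fold change was -0.36 (SE 0.047, 95% interval -0.45 to -0.26), a change of -21.8%, with a Benjamini-Hochberg adjusted p of 6.01e-06 from edgeR's quasi-likelihood test. Leaving out single samples, the adjusted p of that edgeR test stayed between 2.51e-05 and 0.00018 and the log2 fold change between -0.39 and -0.31. In bulk RNA, fewer cells with the transcript and less transcript per cell cannot be told apart.

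The nearest protein-coding gene, DCBLD2, which encodes a neuropilin-like membrane protein, starts 79.4 kb away on the other strand. It was also lower, with 48201 ± 2265 normalized counts in the Olaparib samples against 53352 ± 1396 in the DMSO samples (log2 fold change -0.15, SE 0.030, adjusted p = 0.00239, same edgeR test). DCBLD2 was the only gene called among the 4 protein-coding genes tested within 500 kb of LINC00973. The lncRNA gene ENSG00000239462, whose body spans LINC00973 on the same strand, had 52.1 normalized counts on average in both groups.

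The other 5 called members had smaller or less certain differences. LINC02783 (ENSG00000204362, chromosome 1, 17189783 to 17197617, plus strand) lies 7.51 kb from PADI1 in a cluster of peptidylarginine deiminase genes, enzymes that convert arginine to citrulline. It had 961, 931 and 1018 normalized counts in the Olaparib samples against 1097, 1150 and 1066 in the DMSO samples, without overlap between the groups. Its log2 fold change was -0.19 (SE 0.048, adjusted p = 0.0203, same edgeR test). The adjusted p rose to 0.0947 without Olaparib replicate 2, 0.0928 without DMSO replicate 1 and 0.141 without DMSO replicate 2. PADI1 itself had a log2 fold change of -0.0071 (SE 0.048), and PADI2, 1 of the 10 protein-coding genes tested within 500 kb, was called and higher. An unnamed lncRNA gene on the other strand covers 19.1% of the exonic bases of LINC02783 in GENCODE 44. It was not among the genes in the counts.

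LINC01111 (ENSG00000254300, chromosome 8, 76406654 to 76524356, plus strand) lies 157 kb from ZFHX4, which encodes a zinc finger homeobox transcription factor. It had 413, 367 and 356 normalized counts in the Olaparib samples against 490, 440 and 429 in the DMSO samples, so the groups were separate by a narrow gap. The log2 fold change was -0.26 (SE 0.067, adjusted p = 0.0219, same edgeR test). The adjusted p was 0.104 without Olaparib replicate 2, 0.152 without Olaparib replicate 3, 0.188 without DMSO replicate 1 and 0.0596 without DMSO replicate 2. ZFHX4 was lower too, with 1680 ± 57.6 against 1871 ± 43.2 normalized counts (log2 fold change -0.15, SE 0.042, adjusted p = 0.0319, same edgeR test). ZFHX4-AS1, which overlaps LINC01111 on the other strand, did not pass at a log2 fold change of -0.34 (adjusted p = 0.0627, same edgeR test). The strand setting of the counting is not given in the sources used here, so reads of the overlapping exons, 7.34% of LINC01111, may be shared.

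LINC01011 (ENSG00000244041, chromosome 6, 2987967 to 2991173, plus strand) had the largest fold change of the 6 and the fewest counts. It lies within NQO2, the gene of a quinone reductase, on the same strand, and 28.0% of its exonic bases overlap exons of other genes. Its normalized counts were 30.3, 16.4 and 26.8 after Olaparib and 43.9, 38.2 and 48.3 in the DMSO samples, separate in all samples. The log2 fold change was -0.82 (SE 0.22, 95% interval -1.26 to -0.38, adjusted p = 0.0263, same edgeR test). The adjusted p was 0.186 without Olaparib replicate 2, its lowest sample, 0.0564 without Olaparib replicate 3, 0.085 without DMSO replicate 1 and 0.138 without DMSO replicate 3. NQO2 had 197 ± 12.3 and 213 ± 16.4 normalized counts and did not pass (adjusted p = 0.627, same edgeR test).

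LINC02980 (ENSG00000272462, chromosome 6, 25992641 to 26001775, plus strand), whose CpG-rich RefSeq window is printed above, lies 1.41 kb from TRIM38, the gene of an E3 ubiquitin ligase of the TRIM family. It had 146, 129 and 122 normalized counts in the Olaparib samples against 183, 162 and 170 in the DMSO samples. Here too the groups did not overlap. The log2 fold change was -0.37 (SE 0.11, adjusted p = 0.0406, same edgeR test). The adjusted p was 0.14 without Olaparib replicate 2, 0.197 without Olaparib replicate 3, 0.137 without DMSO replicate 1, 0.0706 without DMSO replicate 2 and 0.108 without DMSO replicate 3. TRIM38 had a log2 fold change of -0.046 (SE 0.045), and none of the 18 protein-coding genes tested within 500 kb was called.

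LINC01089 (ENSG00000212694, chromosome 12, 121795267 to 121803906, minus strand), known as an lncRNA repressed by growth factor signaling in mammary cells, was the called member closest to the threshold. It had 288, 321 and 343 normalized counts in the Olaparib samples against 368, 357 and 406 in the DMSO samples, groups that were separate but close. The log2 fold change was -0.25 (SE 0.072, adjusted p = 0.0475, same edgeR test). The adjusted p was 0.208 without Olaparib replicate 1, 0.112 without Olaparib replicate 2, 0.0856 without DMSO replicate 1, 0.0708 without DMSO replicate 2 and 0.301 without DMSO replicate 3. LINC01089 also lost its call with all 6 samples, at an adjusted p of 0.153 by DESeq2's Wald test and 0.0708 by limma voom. Its start lies 103 bases from that of SETD1B, a histone H3 lysine methyltransferase gene transcribed in the other direction, which had 1486 ± 78.5 and 1516 ± 43.0 normalized counts and did not pass (adjusted p = 0.839, same edgeR test). Exons of other genes cover 60.6% of LINC01089, so its counts are uncertain. Of the 322 members without any exon overlap in GENCODE 44, LINC00973 alone was called (0.311%). Of the 157 members with overlap there, 5 were called (3.18%), where 3.36% of all genes tested were. The 5 include LINC02783, whose only overlapping gene was not in the counts. The median of the mean normalized counts was 7.32 without and 14.4 with overlap, and the difference in calls was not tested.

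**Figure D3:**
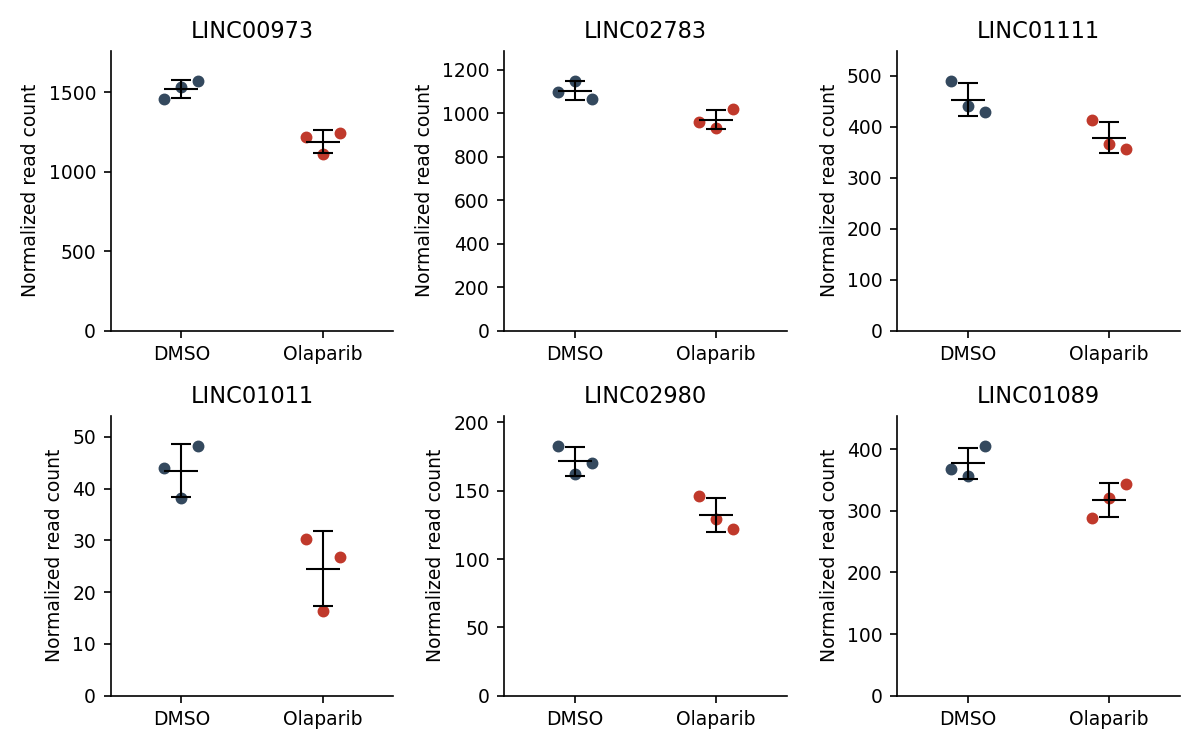
Normalized read counts of the 6 LINC genes with an adjusted p under 0.05 in each of the 3 DMSO and 3 Olaparib samples. Points are samples, horizontal marks are means and bars the SD (n = 3). In each gene all Olaparib samples lie below all DMSO samples, and the axes start at 0.

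The other abundant members gave narrow intervals. LINC00665, which has been described in several carcinomas, had a log2 fold change of 0.032 (95% interval -0.046 to 0.11), LINC02802 of 0.052 (-0.074 to 0.18) and LINC01357 of 0.04 (-0.089 to 0.17). LINC02474 (ENSG00000228437, chromosome 1, 221966341 to 221984964), 224 kb from the MAP kinase phosphatase gene DUSP10, was the member nearest to a call in the higher direction, with 787, 823 and 867 normalized counts in the Olaparib samples against 747, 779 and 695 in the DMSO samples. Its groups were separate and the log2 fold change was 0.16 (SE 0.052), but the adjusted p of edgeR was 0.092, falling to 0.0374 without Olaparib replicate 1. LINC01224 had 1171, 1135 and 1160 normalized counts in the Olaparib samples against 1262, 1233 and 1263 in the DMSO samples. These were tight and separate groups, with a log2 fold change of -0.12 (SE 0.044, adjusted p = 0.163, same edgeR test). LINC02167 and LINC00941 had log2 fold changes of -0.12 each, with adjusted p values of 0.214 and 0.322 (same edgeR test).

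Among the 168 members with a mean normalized count of at least 20, the groups were separate in 32, 24 of them lower and 8 higher. Over all genes tested, without that minimum count, they were separate in 19.3%, with 9.29% lower and 10.0% higher. That share was 14.7% of all genes from 10 to 100 counts, 22.7% from 100 to 1000 and 26.3% over 1000. Of the 8 higher members, the largest 5 were LINC01842, LINC01703, LINC00365, LINC01234 and LINC02450, with log2 fold changes of 0.38, 0.35, 0.32, 0.27 and 0.21. None of them passed the test. LINC01842 had 22.3, 27.7 and 24.8 normalized counts in the Olaparib samples against 15.7, 19.6 and 21.8 in the DMSO samples (adjusted p = 0.522, same edgeR test), so its groups nearly touched. LINC01703, 11.6 kb from the histone gene H3-3A, had 49.6, 50.2 and 66.6 against 43.9, 41.2 and 45.5 (adjusted p = 0.347, same edgeR test). LINC02450 had 127, 119 and 124 against 114, 99.0 and 107 (adjusted p = 0.4, same edgeR test). On the other side, LINC01011 was followed by LINC02595 (-0.63), LINC02453 (-0.48), LINC01409 (-0.42) and LINC01117 (-0.42), none of which passed. LINC02595, on the X chromosome, had 11.1, 29.7 and 28.8 normalized counts in the Olaparib samples against 46.0, 32.3 and 30.3 in the DMSO samples, a difference that rested mainly on 1 sample of each group. Without Olaparib replicate 1 its log2 fold change was -0.29.

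Calls were more frequent at higher read counts. Of the 248 members with a mean normalized count under 10 none was called, where 0.205% of all genes in that range were, and the median SE of the log2 fold change was 0.66. At an unadjusted p under 0.05 there were 8 such members, 4 in each direction. From 10 to 100 counts, 1 of 165 members (LINC01011, 0.606%) was called against 1.19% of all genes. From 100 to 1000, 3 of 61 (4.92%) were called against 5.14%. Over 1000, 2 of 5 (LINC00973 and LINC02783) were called against 5.88% of all genes. The other members over 1000 were LINC00665, LINC01224 and LINC00662. The median SE fell to 0.25, 0.083 and 0.046 in these ranges. At this depth, only large changes were detectable in most members.

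**Figure D4:**
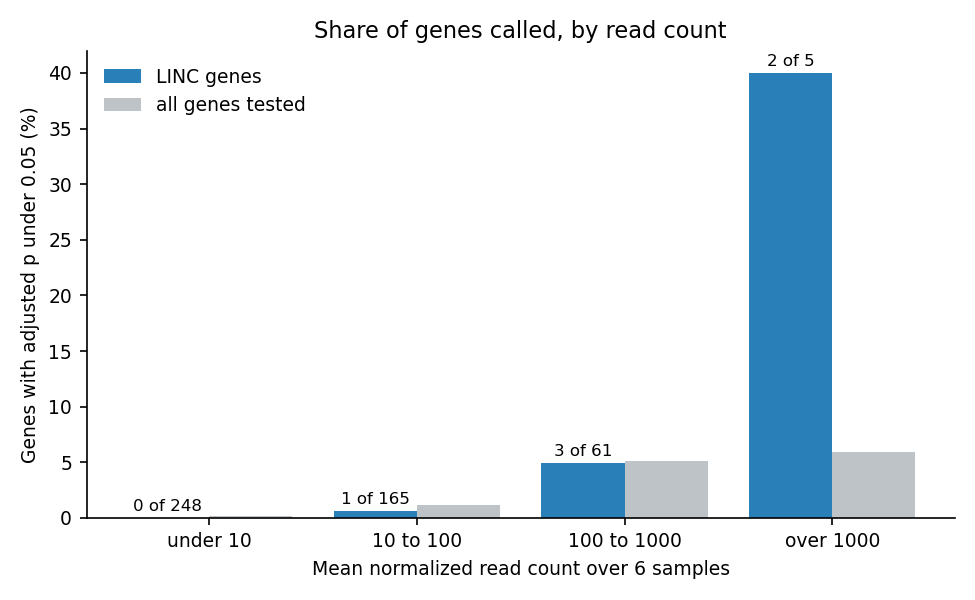
Percentage of genes with an adjusted p under 0.05 by range of mean normalized read count, for LINC genes (blue, with the number called of the number tested) and for all genes tested (gray). Up to 1000 counts the share of LINC genes is not above that of all genes, and the last range holds 5 LINC genes, 2 of them called.

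By position, 22 members started within 1 kb of the start of a protein-coding gene on the other strand. Of the other members, 40 overlapped the body of a protein-coding gene and 417 lay between such genes. The 22 are called divergent here, and they include pairs that overlap at their starts, such as LINC00571 and UFM1. The divergent group had 17 of 22 fitted fold changes below 0 (77.3%; 54.7% of all members and 51.4% of all genes) and a median of -0.13, and 1 of the 22, LINC01089, was called (4.55%; 1.25% of all members and 3.36% of all genes). The median level of the divergent members was 0.136, against 0.114 for all members. Of the 21 divergent partners that were tested, 1 was called (4.76%), close to the 4.37% of all protein-coding genes. It was JUN, the gene of an AP-1 transcription factor subunit, with 6315 ± 194 normalized counts in the Olaparib samples against 5786 ± 66.8 in the DMSO samples (log2 fold change 0.13, SE 0.032, adjusted p = 0.0176, same edgeR test). LINC01135, which starts 336 bases from JUN, had 13.5 normalized counts on average, and its log2 fold change of 0.14 did not pass (adjusted p = 0.903, same edgeR test). LINC01473, 248 bases from ZC3H15, had the lowest fold change of the group at -0.94 (adjusted p = 0.0889, same edgeR test), while ZC3H15 had -0.039. JUN, LINC01135 and LINC01473 were named after their values were seen.

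**Figure D5:**
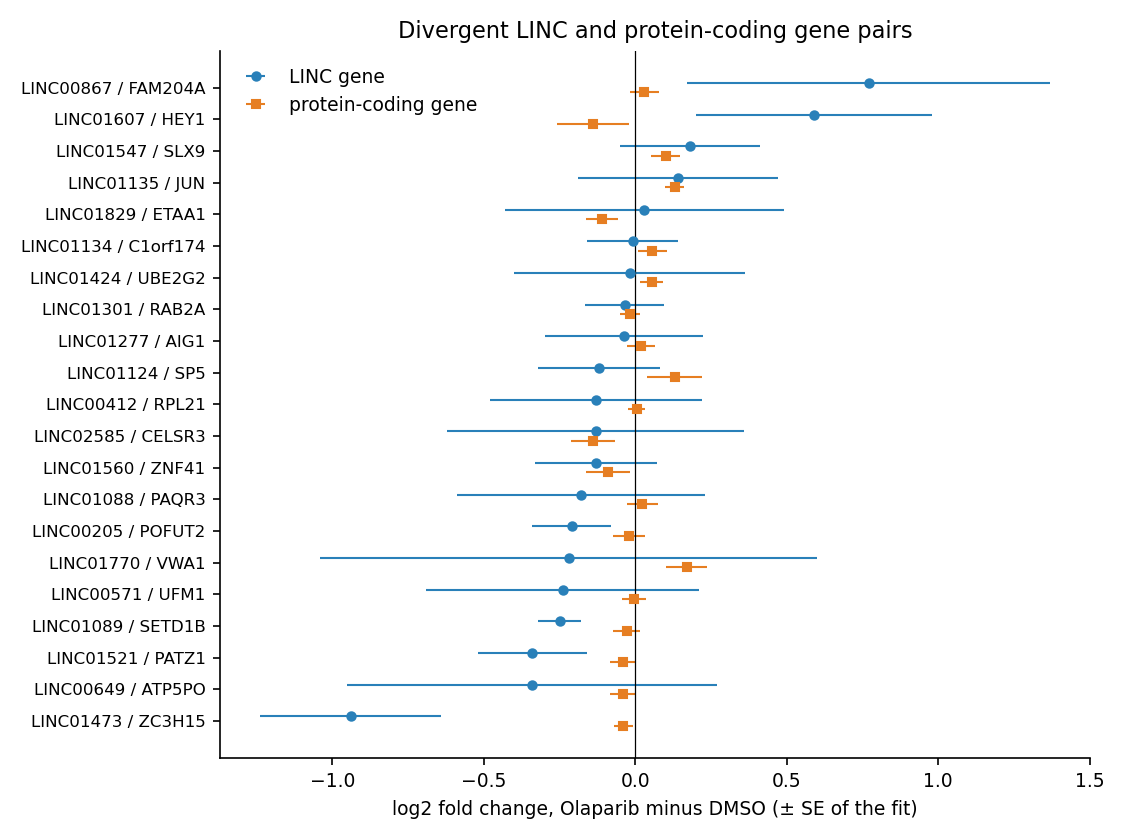
Log2 fold changes (Olaparib minus DMSO) of the 21 divergent LINC genes whose protein-coding partner was tested (blue circles) and of that partner (orange squares), with the SE of the fit as bars. Divergent here means starts within 1 kb on opposite strands, including pairs that overlap at their starts. The bars of the LINC genes are wider and mostly cross 0, and the partners lie between -0.14 and 0.17.

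Across all members the nearest protein-coding gene was tested for 415 and comprised 368 different genes. Of these genes 33 (8.97%) were called, 25 higher and 8 lower, where 4.37% of all protein-coding genes were called, 451 of 642 higher. The difference was not tested. The member and its neighbor had fold changes of the same sign in 214 pairs (51.6%). The correlation of log2 fold changes across pairs was 0.0028 (Pearson) and 0.091 (Spearman) for all 415 pairs, and 0.19 and 0.25 for the 148 pairs whose member had a mean normalized count of at least 20. These are descriptions over genes that share the same 6 libraries and are not independent replicates. Neighbors were far more abundant, at a median of 34.7 times the level of the member, and the LINC gene had the higher level in 48 pairs. Among members within 10 kb of a protein-coding gene, 103 of 168 fold changes were below 0, against 49 of 99 for those over 100 kb away. The single member whose nearest neighbor is on a list of interferon-response genes, LINC02041 near RTP4, did not pass either (log2 fold change -0.082, adjusted p = 0.919, same edgeR test).

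Most LINC genes with a published role were expressed, and few differed. Of 45 such genes chosen from general knowledge, 36 were tested, 22 with fold changes below 0 and 14 above, and 1 (LINC01089) was called. By the unadjusted p, 8 were lower and 1, LINC01133, was higher. Of the 8 lower ones, 7 were among the 21 described members with a mean normalized count of at least 100. From 100 to 1000 counts, 12 of 61 LINC genes and 553 of 5209 of all genes were lower by this p. The shares over all genes tested were 3.36% called and, by the unadjusted p, 6.97% lower and 7.83% higher, and the list was not tested against them. LINC01133, an lncRNA described in epithelial cancers, had 231, 191 and 217 normalized counts in the Olaparib samples against 202, 187 and 159 in the DMSO samples, with overlapping groups (log2 fold change 0.22, SE 0.097, adjusted p = 0.25, same edgeR test). LINC00667 on chromosome 18 had 681, 680 and 704 against 771, 790 and 732, separate groups with a log2 fold change of -0.15 (SE 0.049, adjusted p = 0.0928, same edgeR test). LINC00938, 1.85 kb from the chromatin remodeling gene ARID2, had 233, 221 and 222 against 317, 237 and 252 (log2 fold change -0.25, adjusted p = 0.138, same edgeR test). With single samples left out, its log2 fold change ran from -0.33 to -0.12, and the adjusted p of edgeR was 0.603 without DMSO replicate 1, its highest sample. LINC01278 had 496, 495 and 495 against 530, 536 and 542, the tightest groups among those named, with a log2 fold change of -0.11 (adjusted p = 0.302, same edgeR test). LINC00662 had -0.11 and LINC01139 had -0.15, with adjusted p values of 0.246 and 0.319 (same edgeR test).

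The remaining described members with a mean of at least 100 normalized counts lay closer to 0. LINC00958, described in bladder and other carcinomas, had 694, 709 and 712 normalized counts in the Olaparib samples against 666, 612 and 705 in the DMSO samples (log2 fold change 0.094, 95% interval -0.013 to 0.2). LINC00963 had a log2 fold change of -0.1 (-0.21 to 0.00056), LINC00174 of -0.082 and LINC00339 of -0.067. LINC00467, reported to encode a micropeptide in colorectal cancer, had 663, 662 and 663 against 672, 634 and 665, and its interval ran from -0.088 to 0.11. LINC01116 (0.052), LINC00910 (0.049), LINC00641 (0.035), LINC00847 (-0.00049), LINC01128 (-0.0098) and LINC00342 (-0.04) were within 0.06 of 0, and LINC00641 varied most, from 339 to 476 normalized counts within the Olaparib samples. LINC00472 is one of 3 members that contain a microRNA gene. It had 134, 122 and 140 against 131, 87.2 and 125 normalized counts (log2 fold change 0.21, 95% interval -0.049 to 0.47), and its body spans MIR30A and MIR30C2. The 5′ arms of both share the seed printed in capitals, bases 2 to 8, in the RefSeq mature sequences. MicroRNAs themselves are not captured in poly(A) libraries of this kind.
hsa-miR-30a-5p: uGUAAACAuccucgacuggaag
hsa-miR-30c-5p: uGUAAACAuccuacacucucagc

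Among 28 further lncRNA genes with names of their own, 3 were called and lower. They are no members, and they were listed from general knowledge. Some of them once carried LINC names, but their earlier symbols were not checked. Of 28 such genes 24 were tested, 17 with fold changes below 0, and the 3 called were DANCR, NEAT1 and JPX. Over all genes tested 51.4% had fold changes below 0, 3.36% were called and 1.21% were called and lower, and nothing particular to so short a list can be read from its count. DANCR, a transcript tied to the undifferentiated state of progenitor cells, had 2005 ± 42.1 normalized counts in the Olaparib samples against 2495 ± 66.5 in the DMSO samples (log2 fold change -0.32, SE 0.040, adjusted p = 2.97e-06, same edgeR test). NEAT1, the scaffold of paraspeckles, had 8272 ± 241 against 10708 ± 1358 (-0.37, SE 0.047, adjusted p = 2.83e-06, same edgeR test). Relative to their mean, the DMSO samples of NEAT1 varied far more than those of DANCR, a spread that the SE of the fit does not show. Values of NEAT1 with single samples left out are not given here, so its difference is less certain. JPX had 653 ± 16.8 against 742 ± 25.8 (-0.19, adjusted p = 0.0275, same edgeR test). MALAT1 (0.0048, SE 0.040), GAS5 (5.1e-04, SE 0.030) and NORAD (-0.033, SE 0.035) had values near 0.

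The LINC genes together took 0.0833%, 0.0836% and 0.0853% of all counts in the Olaparib samples and 0.0891%, 0.0870% and 0.0878% in the DMSO samples, without overlap between the groups. Leaving out LINC00973 gave 0.0800%, 0.0806% and 0.0820% against 0.0852%, 0.0829% and 0.0836%, also without overlap. As a share of lncRNA counts they took 9.52%, 9.31% and 9.39% after Olaparib and 9.41%, 9.34% and 9.46% in the DMSO samples, and here the groups overlapped. All lncRNA genes together were also lower in every Olaparib sample, with 0.875% to 0.908% of counts after Olaparib and 0.928% to 0.947% in the DMSO samples. These sums are descriptions and were not tested.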

How the data were processed

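RNA was measured in 6 samples of UWB1.289 cells, 3 independent replicates per condition per the paper. The authors trimmed reads with Trimmomatic, mapped them to GRCh38 (Ensembl 96) with STAR, flagged duplicates by Picard and counted reads per gene by featureCounts. The deposited values are raw whole-number counts for each gene. The strand setting and the treatment of duplicates in counting are not given in the sources used here. Annotation was GENCODE 44 on GRCh38, which held 96.0% of the tested identifiers, and sequences came from RefSeq (GRCh38.p14).

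Genes with more than 10 counts in total were kept and scaled by TMM, and normalized counts are counts divided by the scaled library size, at the mean library size. Levels divide by exonic length. The groups were compared by edgeR's quasi-likelihood test (edgeR 4.0.16, R 4.3.3) over 21729 genes with Benjamini-Hochberg adjustment. The term called means an adjusted p under 0.05, and differentially expressed adds a fold change above 1.2, the threshold in the study's results (its methods name a higher one, and it used DESeq2). An exact permutation test of 3 against 3 samples cannot go below p = 0.1 and was not used. Intervals are 95% intervals of the fit. A nominal floor of 3 counts was used, for counting error only.

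Replicates of one condition differed by more than sampling noise (chi-square per degree of freedom 1.81 to 4.11), so all were counted separately. Alternatives were DESeq2 1.42.0, limma voom (limma 3.58.1), 2 other scalings, 2 other count filters, members without exon overlap, a replicate block and leaving out each sample. Same-numbered samples were correlated at -0.153, 0.185 and -0.214 in their deviations from the group means, so the numbers were not taken as pairs. Samples with different numbers gave -0.277 (Olaparib replicate 3 with DMSO replicate 2) to 0.371 (Olaparib replicate 3 with DMSO replicate 1). A factor shared across the groups was not modeled and was not tested.

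The text names every called member, the 10 with the highest level, the 5 largest changes in each direction among members with a mean normalized count of at least 20 and separate groups, described members that reached 100, and the nearest protein-coding genes of called members, of which 1 is not reported here. The members and lists were chosen with earlier results of these data known.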

Additional observations from a re-analysis of the deposited data

How the results depend on the processing

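The fall of LINC00973 passed the test in all 13 alternatives, with adjusted p values between 1.73e-11 and 0.00018. The other 5 called members kept their direction in every alternative that gave an adjusted p. These were all 13, or 12 for LINC01011, which had none from DESeq2. Each of the 5 lost its call when single samples were left out. LINC01089, LINC01111 and LINC02980 also lost theirs with all 6 samples by DESeq2's Wald test. LINC01089 did so as well by limma voom, with DESeq2's scaling and with edgeR's own count filter. Leaving out 1 sample at a time gave 1 to 6 LINC genes called, 1 to 4 differentially expressed and a median log2 fold change from -0.068 to -0.026. With DESeq2's Wald test, 2 LINC genes were called, 1 was differentially expressed and 14 had an unadjusted p under 0.05, and over all genes 141 were differentially expressed instead of 262. Among the 322 members whose exons overlap no other gene in GENCODE 44, 1 was called (0.311%, where 3.36% of all genes tested were) and 1 differentially expressed. With the replicate number as a block, 8 were called, 1 of them higher (LINC02474, adjusted p = 0.0455) and 1 further member lower (LINC00667, adjusted p = 0.0423), and 291 genes were differentially expressed over all genes. The numbers did not pair the samples. LINC genes took a median of 0.0862% of all counts and 9.4% of lncRNA counts. With a distance of 5 kb in place of 1 kb, 39 members were divergent.

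Of 511 alternative values for the 40 named members, 468 kept both direction and side of the threshold and 13 changed sign, all in members within 0.05 of 0. With 1 sample left out, LINC01357 ranged from -0.0015 (without Olaparib replicate 2) to 0.085 and LINC00467 from -0.013 (without DMSO replicate 2) to 0.03. LINC01128 ranged from -0.093 to 0.082 with 1 sample left out and was 0.0083 without Olaparib replicate 1, LINC00641 ranged from -0.097 to 0.15 and was -0.016 without DMSO replicate 2. LINC00847 was 0.00052 with DESeq2, 0.00059 with genes of at least 1 count and 0.001 with the replicate block, and ranged from -0.047 to 0.032 with 1 sample left out. Depth limits the low members most, since 248 of 479 had a mean normalized count under 10. The causes were not tested.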
